A study of Mus musculus with 6 samples.

Results

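The bone morphogenetic protein (BMP) genes followed here are 9: the ligands Bmp2, Bmp4 and Bmp7, the secreted antagonists Fst and Grem1, the intracellular inhibitor Smad6, and the target genes Id1, Id2 and Id3. They were taken as every probe set whose only gene symbol in the array's annotation is one of these names, which gave 14 of 45037 probe sets, and all 9 genes had at least 1. The RNA came from tumours of GLMT1 cells (GRS/A Lung Metastasis Tumor 1), a line from the mouse strain GRS/A, injected beneath the back skin of males. The hosts were GRS/A-TgH(TnC) mice, deficient in the matrix glycoprotein tenascin-C (TNKO, 3 tumours), or plain GRS/A mice (WT, 3 tumours), in which it is intact. All hosts were 8 weeks old in the design and 10 weeks old in the sample labels, and received 100 microlitres of cells at 10000000 per ml. The labels call the 3 tumours of a group biological replicates and do not describe the injected cells, which are 1 line in both groups, as lacking tenascin-C. The comparison was made to address what a host without tenascin-C does to gene expression in the tumour. The arrays of the groups also differed in spiked controls, as given below.

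BMPs are secreted dimers that bind paired serine/threonine kinase receptors, which phosphorylate Smad1, Smad5 and Smad9. These enter the nucleus with Smad4 and switch on targets such as the Id genes, whose products lack a DNA-binding region and capture basic helix-loop-helix transcription factors in inactive pairs. Antagonists outside the cell and inhibitory Smads within it limit the signal. In skin, hair follicles, vessels and tumour stroma the pathway is known for its part in differentiation, hair cycling and vessel growth.

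Of the 9 genes, 5 matched a RefSeq promoter window in GRCm38.p6 (Bmp4, Grem1, Smad6, Id2 and Id3), read here as the 250 bases before the start. The windows were searched on both strands for GGCGCC, the GC-rich site that BMP-activated Smads can bind, for the palindromic site GTCTAGAC, and for the BMP response element, here GGCGCC followed by GTCT at its usual spacing. The GGCGCC site was present in the windows of Id2 and Grem1, against 9.59% of all 32851 promoter windows. The 5 windows had a GC content of 62.8% to 72%, and the share over all windows was not matched for it. GTCTAGAC (0.167% of all windows) and the BMP response element (0.07% of all windows, each of which also holds GGCGCC) were in none of the 5. The sequences below are the windows that hold GGCGCC, in capitals, and that of Id3, the other Id gene matched, for comparison. The Id2 window lies on the minus strand at chr12:25096093-25096342, with the site 231 bases before the start, the Grem1 window on the minus strand at chr2:113758649-113758898, with the site 78 bases before it, and the Id3 window on the plus strand at chr4:136143572-136143821. A match of letters is a description and was not tested for binding.
Id2: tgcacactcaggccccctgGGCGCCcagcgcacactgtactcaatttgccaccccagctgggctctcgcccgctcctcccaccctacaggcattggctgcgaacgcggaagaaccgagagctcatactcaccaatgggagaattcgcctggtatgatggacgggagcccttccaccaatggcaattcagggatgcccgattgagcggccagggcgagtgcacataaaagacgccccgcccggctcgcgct
Grem1: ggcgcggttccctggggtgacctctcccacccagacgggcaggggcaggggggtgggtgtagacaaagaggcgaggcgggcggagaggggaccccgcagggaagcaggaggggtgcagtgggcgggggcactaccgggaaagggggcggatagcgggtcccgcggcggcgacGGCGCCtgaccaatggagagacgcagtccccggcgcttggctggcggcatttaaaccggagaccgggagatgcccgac
Id3: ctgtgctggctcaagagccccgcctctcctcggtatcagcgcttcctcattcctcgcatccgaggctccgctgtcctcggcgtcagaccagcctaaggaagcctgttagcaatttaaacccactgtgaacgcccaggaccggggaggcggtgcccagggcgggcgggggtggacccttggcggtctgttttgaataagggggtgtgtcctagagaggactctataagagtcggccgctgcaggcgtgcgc

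RNA was measured on 1 array per tumour, and the deposited values are normalized and taken to be on a log2 scale. They hardly differ between arrays: the median probe set spanned 5.46 millionths of a unit over the 6 tumours. Values are therefore given as the deviation of each tumour from the mean of the 3 WT tumours, in millionths of a deposited log2 unit, and differences also in residual SDs, meaning the probe set's SD within the groups in the same fit. None of these can be read as a fold change in RNA. Tests are limma's moderated test of TNKO minus WT with Benjamini-Hochberg adjustment over all 45037 probe sets and a threshold of 0.05. By it 79 probe sets passed (0.175%), while 20.3% had an unadjusted p under 0.05 and in 28% the groups did not overlap. Precision is limited by the number of arrays, which have no read depth. Of 18 probe sets for spiked hybridisation controls, 16 had all 3 TNKO tumours above all 3 WT tumours, and 18 had a higher mean in TNKO tumours. Spiked controls do not come from the host, so the groups differed in more than the host. Differences due to the host and to the handling of the arrays cannot be told apart here. TNKO tumour 3 stood apart in hair keratins: Krt25 deviated by 3055000 millionths there, against -11730 and 56660 in the other TNKO tumours and -33600 to 40000 in WT tumours. TNKO tumours 1 and 2 stood apart in muscle and adipocyte markers. Over 8 muscle markers, all with a lower mean in TNKO tumours, the mean level was 6.52, 6.60 and 7.17 in TNKO tumours 1, 2 and 3, against 7.03 to 7.20 in WT tumours. Over 5 adipocyte markers, all with a higher mean, it was 7.75, 7.62 and 7.29, against 7.04 to 7.39 in WT tumours. The array median of TNKO tumour 3 was 6.570, against 6.567 to 6.568 in the other 5 tumours.

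Tnc, which the TNKO hosts lack, was read by 2 probe sets. The brighter deviated by -220800, -195800 and -185600 millionths in TNKO tumours, against -3738, 25940 and -22200 in WT tumours, a difference of -200800 (SE 16350, adjusted p = 0.0537 by limma). The dimmer differed by -671.5 (SE 148.0, adjusted p = 0.125). In both, the TNKO tumours lay below all WT tumours, and neither passed. The injected cells may carry Tnc and the position of the probe sets in the gene was not used, so this is no check of the hosts' genotype. Of the markers of epithelial tumour cells, Krt8 stood at a level of 11.4, Krt18 at 8.92, Cdh1 at 7.48 and Epcam at 7.04 over the 6 tumours. Cldn7 stood at 5.95 and Krt19 at 6.07. The table carries no detection calls, so these levels do not settle which of them was expressed.

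None of the 14 BMP probe sets passed, with adjusted p-values of 0.139 to 0.938, beside 0.175% of all probe sets. At an unadjusted p under 0.05 there were 2 (14.3%), Bmp7 higher and Id2 lower in TNKO tumours, against 20.3% of all probe sets. In those same 2 the groups did not overlap, against 28%. The mean was lower in TNKO tumours in 8 probe sets, against 45.5% of all probe sets, and higher in 6. These 6 all turned lower when arrays were scaled by quantiles or by their medians. Scaling by medians lowers every difference alike, by more than any of these 6, so that turn was fixed in advance. Over the 14 the median difference was -0.84 residual SDs, against 0.173 over all probe sets. This counts genes with several probe sets more than once, Id2 with 3 lower ones. By the brightest probe set of each of the 9 genes, 5 were higher and 4 lower. The median there was 0.16, against 0.283 over all genes. The median absolute difference over the 14 was 1.04, against 1.05 over all probe sets. As deposited the shares with an unadjusted p under 0.05 and without overlap lay below those of all probe sets. Under quantile normalization 2 of 14 had an unadjusted p under 0.05 by limma (14.3%), against 1.31% of all probe sets, and with array medians subtracted 0 of 14, against 0.193%. The quantile count does not repeat the earlier result, since Bmp7 1435479_at was lower there (-545 millionths). The lowest adjusted p of the 14 under quantile normalization was 0.588 by limma. A p that misses the threshold does not show that the levels were alike.

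The ligands did not move together. BMP2, a bone- and heart-forming ligand, is encoded by Bmp2, read by 1 probe set at a level of 9.27. It deviated by -463, -33.1 and -242 millionths in TNKO tumours, against -47.5, -47.6 and 95.1 in WT tumours. TNKO tumours 1 and 3 were the lowest, but TNKO tumour 2 lay above 2 of the WT tumours, so the groups overlapped. The difference was -246 (SE 124, -1.51 residual SDs, adjusted p = 0.354 by limma).

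Bmp4, which encodes a ligand of mesenchyme and of the hair follicle's dermal papilla, had deviations of -3.18, -11.8 and 67.8 millionths in TNKO tumours, against 6.02, -11.7 and 5.66 in WT tumours. Its level was low, 6.02, with 22.7% of all probe sets at or below it. TNKO tumour 3 alone was high, and the other TNKO tumours lay among or just below the WT tumours. The difference was 17.6 (SE 24.2, 0.556 residual SDs, adjusted p = 0.742 by limma) and turned to -7.48 without TNKO tumour 3. That tumour was also the one with high hair keratins. Over the 9 hair follicle and epidermis markers the mean level was 6.78, 6.79 and 7.28 in TNKO tumours 1, 2 and 3, against 6.78 to 6.79 in WT tumours, although TNKO tumour 3 was the highest in 4 of the 9 genes and WT tumour 3 in 5. The part of these cells in the Bmp4 values was not tested, and in bulk tumour RNA more cells of a type and more RNA per cell cannot be told apart.

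Bmp7 encodes a ligand of epithelia and kidney and was read by 3 probe sets. In the brightest, 1435479_at, it deviated by 55.3, 50.9 and 107 millionths in TNKO tumours, against -1.93, -3.31 and 5.24 in WT tumours. All 3 TNKO tumours lay above all 3 WT tumours, with TNKO tumour 3 the highest. The difference was 71.1 (SE 17.0, 3.19 residual SDs, unadjusted p = 0.0105 and adjusted p = 0.139 by limma), and it was 53.1 without TNKO tumour 3. The other probe sets of Bmp7 did not share it, but they were dimmer, at levels of 5.80 (1418910_at) and 5.64 (1432410_a_at), against 6.51. Only 10.7% and 4.54% of all probe sets stood at these levels or below. Without detection calls it is not known whether these probe sets could show such a difference. In 1418910_at the deviations were 5.80, -3.94 and 46.4 millionths in TNKO tumours, against 8.25, -8.98 and 0.733 in WT tumours. Here TNKO tumour 3 alone was high (difference 16.1, SE 15.2, adjusted p = 0.613 by limma). In 1432410_a_at the difference was -0.981 (SE 0.986, adjusted p = 0.638 by limma), and the groups overlapped. Over the 6 tumours 1435479_at followed 1418910_at with r = 0.782 and 1432410_a_at with r = -0.137, as a description of 6 shared arrays.

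**Figure D1:**
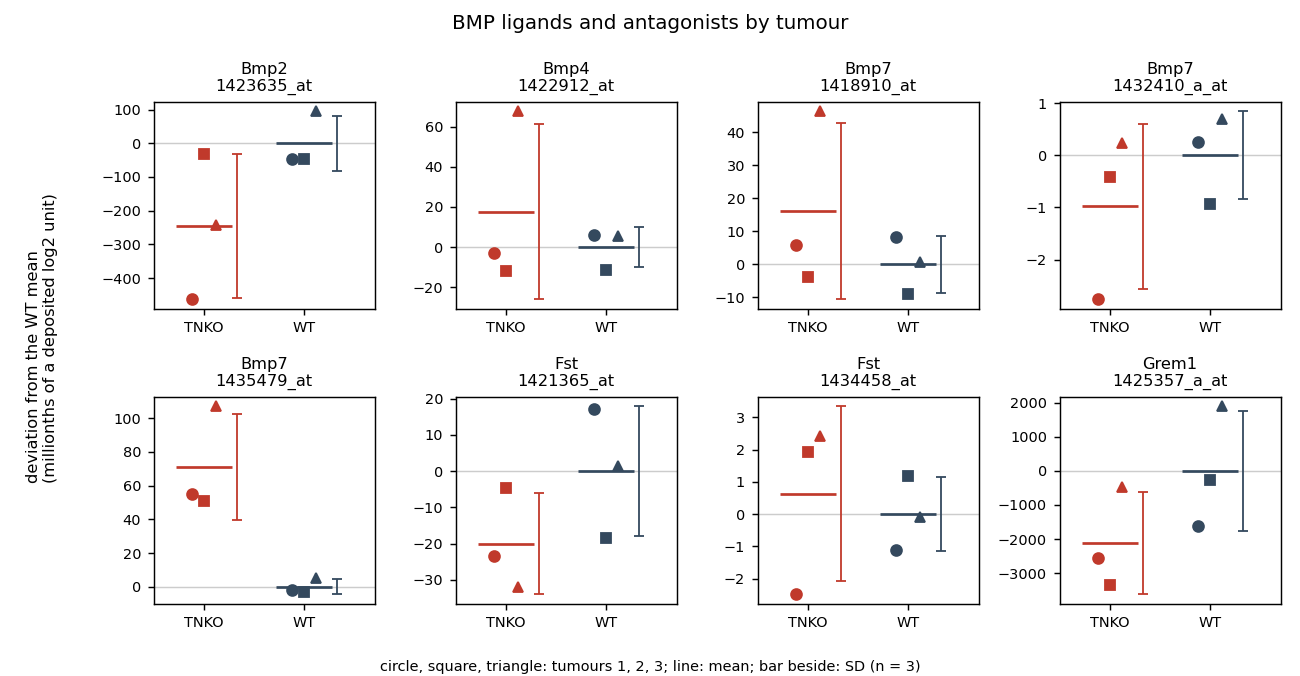
Deviation of each tumour from the WT mean, in millionths of a deposited log2 unit, for the 8 probe sets of BMP ligands and antagonists, each with its own vertical scale. Points are tumours, lines are group means and the bars beside them the SD (n = 3). In Bmp7 1435479_at the TNKO tumours, at 50.9 to 107, lie above the WT tumours, and in the other 7 probe sets the groups overlap.

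The antagonists overlapped between the groups in all 3 probe sets. Grem1 encodes gremlin, which binds BMP2, BMP4 and BMP7 and keeps them from their receptors. Its probe set stood at a level of 6.40 and had the widest range of the 14. It deviated by -2563, -3356 and -464 millionths in TNKO tumours, against -1606, -279 and 1885 in WT tumours. TNKO tumours 1 and 2 were the lowest and WT tumour 3 the highest, while TNKO tumour 3 lay between WT tumours 1 and 2. The difference was -2128 (SE 1247, -1.30 residual SDs, adjusted p = 0.415 by limma), running from -2960 to -1185 with each tumour left out in turn. Gremlin is made by fibroblasts. WT tumour 3, the highest in Grem1, was the lowest in 7 of 8 fibroblast markers and the highest in Dcn, the remaining one. Its mean level over the 8 was 10.730, against 10.736 to 10.739 in the other tumours. Dpt and Lum deviated most there, by -29700 and -10620 millionths. TNKO tumours 1 and 2, the lowest in Grem1, were also the tumours with low muscle and high adipocyte markers. The part of fibroblasts, muscle and fat in the Grem1 values was not tested.

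Fst encodes follistatin, which captures activins and, less tightly, BMPs. In its brighter probe set, 1434458_at, it deviated by -2.49, 1.94 and 2.43 millionths in TNKO tumours, against -1.10, 1.18 and -0.0807 in WT tumours. The TNKO tumours held both the lowest and the highest value. The difference was 0.627 (SE 1.6, adjusted p = 0.873 by limma). In the dimmer, 1421365_at, the deviations were -23.4, -4.66 and -32.0 in TNKO tumours, against 17.1, -18.6 and 1.51 in WT tumours. TNKO tumours 1 and 3 were the lowest there (difference -20.0, SE 12.2, adjusted p = 0.433 by limma). The 2 probe sets of Fst did not follow each other over the 6 tumours (r = -0.298).

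Smad6 encodes an inhibitory Smad that BMP signals themselves induce. It deviated by -6.05, 3.0 and 7.97 millionths in TNKO tumours, against -0.892, -3.64 and 4.53 in WT tumours. The TNKO tumours again spanned the WT tumours. The difference was 1.64 (SE 4.45, adjusted p = 0.882 by limma).

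Of the Id genes, Id2 was lower in the mean of TNKO tumours in all 3 probe sets, Id3 was lower in its 1 and Id1 higher in its 1, none past the threshold. Id1, a direct BMP target best known in vessels and stem cells, varied widely within the groups. It deviated by -18.9, 933 and -610 millionths in TNKO tumours, against 147, -499 and 351 in WT tumours. The lowest and the highest tumour were both TNKO tumours. The difference was 101 (SE 484, 0.160 residual SDs, adjusted p = 0.938 by limma), the smallest of the 14 in residual SDs. It turned to -315 without TNKO tumour 2 and to -148 without WT tumour 2. Of 9 endothelial markers, 9 had a higher mean in TNKO tumours and TNKO tumour 1 was the highest in 8, whereas Id1 was highest in TNKO tumour 2. Over all 18193 genes 57.6% had a higher mean, and 1 of the 9 markers did with quantile normalization. With array medians subtracted 0 did, which was fixed in advance. The shift there exceeds the largest of the 9 differences, 593 millionths for Cldn5. The part of endothelial cells in the Id1 values was not tested.

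Id2 encodes an Id protein known in lymphoid, mammary and neural development. In its dimmest probe set, 1453596_at, it deviated by -261, -274 and -272 millionths in TNKO tumours, against 158, -75.8 and -81.8 in WT tumours. All 3 TNKO tumours lay below all 3 WT tumours and close together (SD 6.88), while WT tumour 1 was well above the rest (SD of WT tumours 137). The difference was -269 (SE 73.7, -2.78 residual SDs, unadjusted p = 0.0172 and adjusted p = 0.165 by limma), and -190 without WT tumour 1. In the brightest, 1435176_a_at, the deviations were -112, -44.7 and -36.5 in TNKO tumours, against 31.8, 15.7 and -47.5 in WT tumours. WT tumour 3 lay within the TNKO range, and the difference was -64.5 (SE 31.9, adjusted p = 0.346 by limma). In 1422537_a_at they were -19.1, -3.06 and -26.9 in TNKO tumours, against 17.0, -12.9 and -4.16 in WT tumours. Those groups overlapped too (difference -16.4, SE 10.6, adjusted p = 0.456 by limma). WT tumour 1 was the highest in each of the 3 probe sets of Id2. They followed each other over the 6 tumours with r of 0.565, 0.756 and 0.807, a description over arrays they share.

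Id3, whose product is close to that of Id1 in function, deviated by -41.2, 7.07 and -48.0 millionths in TNKO tumours, against -15.7, -19.6 and 35.3 in WT tumours. TNKO tumours 1 and 3 were the lowest, and TNKO tumour 2 lay above 2 of the WT tumours. The difference was -27.4 (SE 23.1, -0.903 residual SDs, adjusted p = 0.57 by limma).

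**Figure D2:**
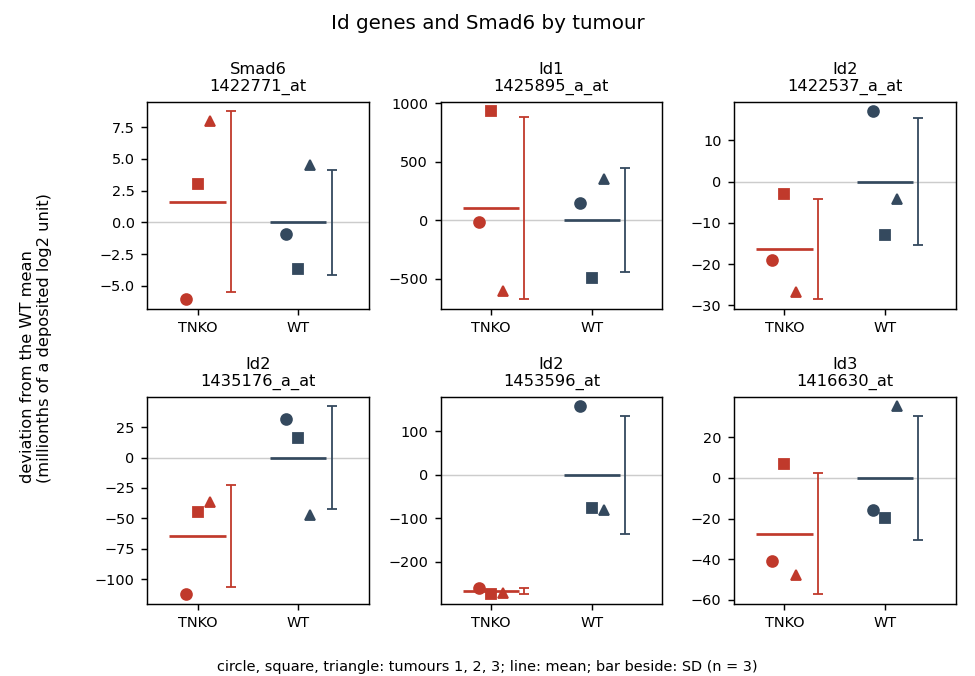
Deviation of each tumour from the WT mean, in millionths of a deposited log2 unit, for Smad6 and the Id genes, each probe set with its own vertical scale. Points are tumours, lines are group means and the bars beside them the SD (n = 3). In Id2 1453596_at the TNKO tumours lie together between -274 and -261, below all WT tumours, and in Id1 the TNKO tumours reach from -610 to 933.

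**Figure D3:**
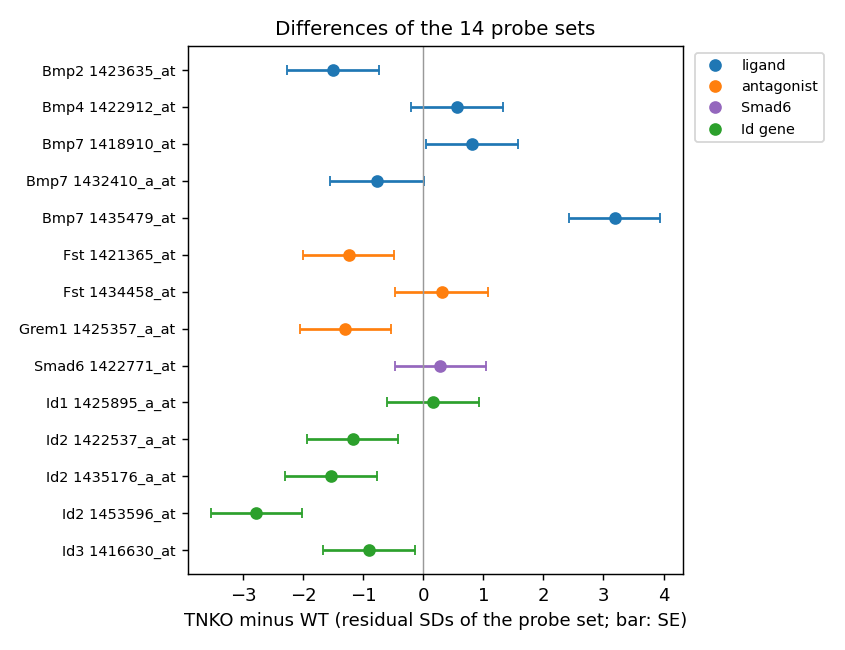
TNKO minus WT in residual SDs for the 14 probe sets, with the standard error as bars, by role. Bmp7 1435479_at (3.19) and Id2 1453596_at (-2.78) are the farthest from 0, and Id1 (0.160) is the nearest.

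Most of the 14 probe sets had a wide spread between tumours. Their median span over the 6 tumours was 81.4 millionths, against 5.46 over all probe sets, and 12 of 14 lay above that median. In 8 of 14 the span was among the widest 10% of all probe sets, which begin at 60.8. Grem1 spanned 5241, Id1 1543, Bmp2 558 and Id2 432 in 1453596_at. The exceptions were Bmp7 1432410_a_at, which spanned 3.45, and Fst 1434458_at, which spanned 4.92. TNKO tumour 3 was the highest in 5 of the 14 and the lowest in 4, against 6991 and 8307 of all 45037 probe sets. TNKO tumour 1 was the highest in 0 and the lowest in 5, against 8381 and 6464. WT tumours 1 and 3 were the highest in 4 each, against 6497 and 8699 of all probe sets. They were the lowest in 0, against 7959 and 8822. The 3 probe sets of Id2 are among those highest in WT tumour 1.

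**Figure D4:**
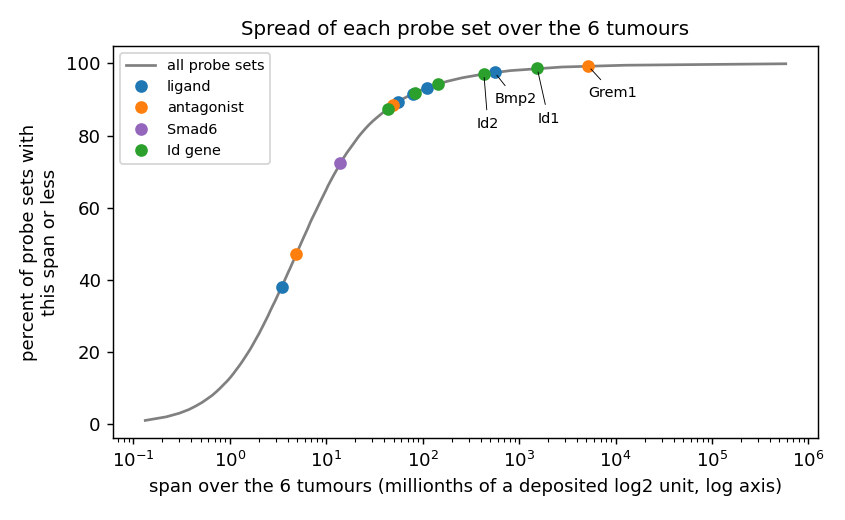
Share of probe sets with a span over the 6 tumours up to the value on the horizontal log axis, in millionths of a deposited log2 unit, with the line for all probe sets and points for the 14 BMP probe sets by role. The points lie mostly at the right, with Grem1 at 5241 and Id1 at 1543.

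Between the 9 genes, by their brightest probe sets, 36 pairs were compared over the 6 tumours with exact permutation tests. The highest r over the 6 tumours was that of Bmp2 and Id3, a ligand and a target, with r = 0.825 (two-sided exact permutation p = 0.0319) and rho = 0.943 (exact permutation p = 0.0167). After adjustment over the 36 pairs these were 0.857 and 0.6, so the pair did not pass. Without TNKO tumours 1 and 3, the farthest from the median of Bmp2, r was 0.926, and for deviations from the group means r was 0.773. Id1 and Id3 had r = 0.688 (exact permutation p = 0.121, adjusted p = 0.857), which was 0.58 without TNKO tumours 2 and 3 and 0.844 for deviations from the group means. Bmp4 and Bmp7 had r = 0.711 (exact permutation p = 0.122, adjusted p = 0.857), which turned to -0.107 without TNKO tumours 2 and 3 and so rests on them. For deviations from the group means it was 0.983, higher than that of Bmp2 and Id3. TNKO tumour 3 was the highest in both genes (67.8 and 107 millionths), and this r was not computed without it. The remaining 33 pairs did not pass either.

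Among 18192 other genes, those most like each member over the 6 tumours were named from the highest Pearson correlation, as a description. Id1 was nearest to Col6a1, a chain of type VI collagen (r = 0.985), and Polr2j, an RNA polymerase II subunit (r = 0.980). Id3 was nearest to Adar, an RNA-editing enzyme (r = 0.994), and Fam210b (r = 0.993), and Id2 to Zfp800 (r = 0.990) and Gprc5c (r = 0.981). Bmp2 was nearest to Spsb4 (r = 0.987) and Zim1 (r = 0.983), Bmp4 to 2010320O07Rik (r = 0.998) and Adamts20 (r = 0.988), and Bmp7 to Taar1 and D2hgdh (r = 0.993 each). Grem1 was nearest to Retreg1 (r = 0.995) and Zxda (r = 0.994), Fst to Kcng2 (r = 0.980) and Ghsr (r = 0.970), and Smad6 to Tacr2 (r = 0.992) and 4932437C15Rik (r = 0.991). With 6 tumours such values are common: between 75 and 352 genes reached r of at least 0.9 with a given member. No member was among the 2 nearest genes of another.

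The rest of the pathway was read from a list of 53 genes, of which 48 were matched, each by its brightest probe set. None passed, beside 0.121% of 18193 genes, and the adjusted p-values were 0.118 to 0.999. At an unadjusted p under 0.05 there were 7 (14.6%), 4 higher and 3 lower in TNKO tumours, against 18.4% of all genes. The groups did not overlap in 16 (33.3%), against 26.1%. By this count the pathway stood somewhat above all genes, and by the unadjusted p below them. Scaling by quantiles or by array medians lowered the median difference of all genes, to -560 and -764 millionths. Means called higher below turned lower in most genes under both, and the directions given are those as deposited. With medians subtracted the shift is the same for every gene. It follows from the array medians, of which that of TNKO tumour 3 was 6.570, against 6.567 to 6.568 in the other tumours.

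Among the other ligands Bmp8a and Bmp6 were highest in TNKO tumours. Bmp8a deviated by 8.15, 13.9 and 17.3 millionths in TNKO tumours, against -2.04, 3.91 and -1.87 in WT tumours (difference 13.1, SE 3.11, adjusted p = 0.137 by limma). Bmp6, a regulator of iron balance through hepcidin, deviated by 22.3, 9.11 and 8.82 in TNKO tumours, against 3.74, -1.47 and -2.27 in WT tumours (difference 13.4, SE 4.53, adjusted p = 0.213 by limma). In both genes all TNKO tumours lay above all WT tumours, without passing. Of the 8 ligands matched, 5 had a higher mean in TNKO tumours and 3 a lower one.

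Of the 13 receptors and co-receptors 7 had a higher and 6 a lower mean. Acvr1, which encodes the type I receptor ALK2, deviated by -44.1, -32.5 and -44.5 millionths in TNKO tumours, against -14.5, 0.93 and 13.6 in WT tumours (difference -40.4, SE 8.43, -3.66 residual SDs, adjusted p = 0.118 by limma). Bmpr1b, the type I receptor ALK6, deviated by -42.1, -39.0 and -21.3 in TNKO tumours, against -7.31, 13.7 and -6.39 in WT tumours (difference -34.1, SE 8.83, adjusted p = 0.152 by limma). All TNKO tumours lay below all WT tumours in these receptor genes. In 4 others, Eng, Tgfbr3, Rgma and Bambi, all TNKO tumours lay above all WT tumours, so that the groups did not overlap in 6 of 13 (46.2%), against 26.1% of all genes.

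Signal carriers and their inhibitors, the other Smads with the ubiquitin ligases Smurf1 and Smurf2, had a lower mean in TNKO tumours in 7 of 7, and in 4 the groups did not overlap. Over all genes 42.4% had a lower mean, and in 26.1% the groups did not overlap, with TNKO tumours below WT tumours in 11.1%. Smurf2, which marks Smads and receptors for degradation, deviated by -8.62, -6.79 and -6.68 millionths in TNKO tumours, against -1.19, -2.70 and 3.90 in WT tumours (difference -7.37, SE 1.97, adjusted p = 0.159 by limma). Smurf1 differed by -1.01 (SE 0.398, adjusted p = 0.261 by limma). Counted against the median of all genes, 7 of 7 were below it as deposited and 4 of 7 with quantile normalization. Subtracting array medians shifts every gene alike and cannot change this count.

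Of 13 other antagonists 9 had a higher and 4 a lower mean, and the groups did not overlap in 1. That was Twsg1, which encodes twisted gastrulation, a BMP binder that acts with chordin. It deviated by -47.5, -14.1 and -36.4 millionths in TNKO tumours, against -10.0, -12.1 and 22.1 in WT tumours (difference -32.7, SE 13.8, adjusted p = 0.286 by limma). Chrdl1, a chordin-like antagonist, differed by 34.0 (SE 18.6, adjusted p = 0.386 by limma) with groups that overlapped.

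Other targets had a higher mean in TNKO tumours in 7 of 7, as deposited. Under quantile normalization 7 of 7 had a lower one. Subtracting array medians shifts every gene alike, by more than any of these 7 differences, so there 7 of 7 had to turn lower. Against the median of all genes, 7 of 7 stood above it as deposited and 4 of 7 with quantile normalization. The shift by medians cannot change that count. Id4, the remaining Id gene, deviated by 4.30, 5.78 and 7.89 millionths in TNKO tumours, against -0.75, -1.73 and 2.48 in WT tumours (difference 5.99, SE 1.55, adjusted p = 0.152 by limma). Its groups did not overlap, with TNKO tumours above WT tumours, whereas Id1, Id2 and Id3 overlapped in their brightest probe sets. In the other Id4 probe sets the groups overlapped, 1423259_at (difference -0.185, SE 9.79, adjusted p = 0.995 by limma) and 1450928_at (61.9, SE 48.0, adjusted p = 0.534 by limma). Whether Id4 differs from the other Id genes in this was not tested. Dlx5, a homeobox gene of bone, differed by 19.3 (SE 8.12, adjusted p = 0.283 by limma).

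**Figure D5:**
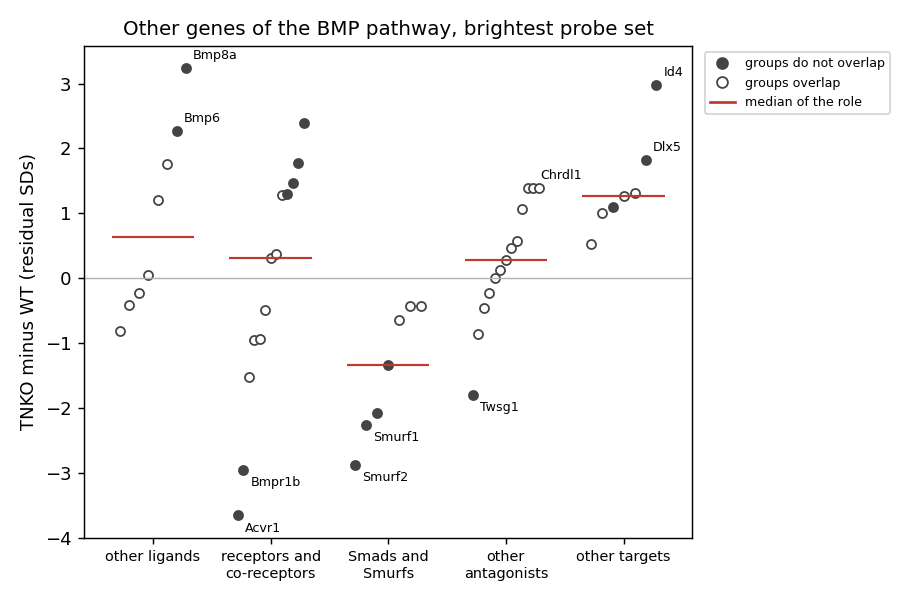
TNKO minus WT in residual SDs for the 48 other genes of the BMP pathway by role, each by its brightest probe set. Filled points are genes whose groups do not overlap (16 of 48), open points overlap, and red lines are medians by role. The Smads and Smurfs lie below 0 in 7 of 7 and the other targets above 0 in 7 of 7 (below 0 under both scalings), and 0 of the 48 passed adjustment.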

How the data were processed

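RNA of 6 mouse tumours (3 TNKO, 3 WT) was measured on Affymetrix arrays, from biotinylated RNA made from 100 ng of total RNA, per the labels' protocols. The deposited values, for 45101 probe sets on each array, were normalized by the authors and are taken to be log2 from their range. R 2.7.2 appears in the submitters' processing notes. How values were summarized and normalized, and the logarithm's base, is not given in the sources used here.

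Tests left out 64 control probe sets. Of the rest 34945 had 1 gene symbol in the platform's annotation (2016), 932 several and 9160 none. Symbols checked by gene identifier against a reference table changed in 0. A gene was read from its probe set with the highest mean, which gave 18193 genes. Any 2 arrays shared 21 to 43 exactly equal values, so none was treated as a duplicate.

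TNKO minus WT was fitted in R 4.3.3 by limma 3.58.1 (eBayes after lmFit, two-sided) on the deposited values, with Benjamini-Hochberg adjustment over 45037 probe sets and a threshold of 0.05. The procedure was run on simulated data with independent noise and no shift between arrays, so that run does not speak to such shifts in these data. Correlations used exact permutations. Alternatives were scaling by quantiles or by array medians, trended, robust or no moderation, array weights, filters on level and on span, adding 16 before log2, the replicate number as a block, each array left out, and the mean over a gene's probe sets. Tumours with the same number did not deviate together, so the numbers were not taken as pairs. All members and the 2 pathway genes per role with the smallest unadjusted p were named, with the 2 genes most like each member. Members and lists were chosen with earlier results of these data known. Genes of the lists not matched included Bmp3, Gdf6, Gdf7 and Runx2 of the pathway and Cfd and Plin1 of the adipocyte markers. No batch is labelled.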

Additional observations from a re-analysis of the deposited data

How the results depend on the processing

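No BMP probe set passed under any alternative that was run, with a lowest adjusted p of 0.109 (limma, without WT tumour 1), and the 48 other pathway genes also gave 0 calls under each. Over all probe sets the limma calls, 79 as reported, were 0 with quantile normalization (591 at an unadjusted p under 0.05), 0 with the span filter (155 of 790), 2 without moderation and 285 among probe sets above the median level. They ran from 0 to 73 with 1 tumour left out, 0 being the count without WT tumour 1 (7144 at an unadjusted p under 0.05) or 3 (6807). With the replicate block it was 0 (7816 at an unadjusted p under 0.05), and of the 14 BMP probe sets 0 passed and 3 had an unadjusted p under 0.05. Tumours with the same number correlated at r = 0.0289, -0.0157 and 0.00531 in their deviations from the group means. Of the 2 Tnc probe sets, 1 passed with array medians subtracted and 1 among probe sets above the median level.

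Both scalings lowered the median difference of all probe sets (-538 millionths with quantile normalization and -764 with medians subtracted). Every BMP probe set that was higher as deposited turned lower under both. Subtracting medians shifts every probe set alike, by more than the largest of these differences (101, Id1), so those turns were fixed in advance. The differences became -427 and -746 for Bmp4, -239 and -748 for Bmp7 1418910_at, -545 and -693 for Bmp7 1435479_at, -747 and -763 for Fst 1434458_at, -505 and -762 for Smad6, and -1340 and -663 for Id1. The mean over the probe sets of Fst gave -9.69. With 1 tumour left out the range was -7.48 to 32.3 for Bmp4, -0.275 to 2.19 for Fst 1434458_at, -1.52 to 5.49 for Smad6 and -315 to 457 for Id1. The other 10 probe sets kept their direction there, and the 8 that were lower kept it under every alternative in which they were fitted. With medians subtracted that too was fixed in advance.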

Other observations

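Dimmer probe sets of the pathway genes were outside the comparison by gene. Of 52, 12 had an unadjusted p under 0.05 by limma (23.1%), against 20.3% of all probe sets, and none passed adjustment. Of these, 10 were lower in TNKO tumours (19.2% of 52), against 10.8% of all probe sets. In 14 of 52 all TNKO tumours lay below all WT tumours and in 2 above, against 13.8% and 14.2% of all probe sets. The smallest p-values were those of Smad5, which carries the BMP signal to the nucleus (1451873_a_at, difference -22.2 millionths, SE 3.37, adjusted p = 0.0842 by limma), and Bmpr1b (1443720_s_at, -44.1, SE 6.80, adjusted p = 0.086 by limma). They were followed by Twsg1 (1421832_at, -50.7, adjusted p = 0.0968), Acvr1 (1416786_at, -78.7, adjusted p = 0.0986) and Smad1 (1416081_at, -86.3, adjusted p = 0.109), all by limma. For Smad5, Acvr1, Bmpr1b and Twsg1 the brightest probe set was also lower in all 3 TNKO tumours. For Smad1 the groups overlapped in the brightest (difference -3.50, SE 4.15, adjusted p = 0.697 by limma). Bmpr1a, Bmpr2 and Smurf2 also had a dimmer probe set among the 10. In the brightest, Smurf2 was lower in all 3 TNKO tumours, Bmpr1a overlapped and Bmpr2 had a higher mean (0.63). The dimmer probe sets named here were chosen after their values were seen.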
